A study of Mus musculus with 9 samples.

Results

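Evi1 HSC cells were compared with wild-type (WT) cells that carry a stem cell expression profile, in 6 of the 9 libraries of a mouse fetal liver RNA-seq study. The 3 Evi1 HSC libraries were set against the WT libraries in which Hlf, a transcription factor gene used as a haematopoietic stem cell (HSC) marker, reached 50 TPM or more. TPM is a gene's share of all transcripts after scaling by gene length. The WT libraries were chosen by their Hlf level, so the Hlf values are a description: 153, 189 and 164 TPM in the chosen libraries, labelled WT HSC replicate 1, WT HSC replicate 2 and WT KL replicate 1. The other WT libraries held 0.631 TPM (labelled WT HSC replicate 3), 1.83 TPM and 2.19 TPM (labelled WT KL replicates 2 and 3), so the values just inside and just outside the threshold were 153 and 2.19 TPM. The Evi1 HSC libraries held 194, 140 and 181 TPM. The WT group is therefore not a labelled group: by Hlf, 1 library of each WT label goes against its label, and the main values are also given without the library labelled WT KL replicate 1.

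All libraries came from C57BL/6 fetal livers at embryonic day 14.5, each from the lysate of 100 sorted cells. Evi1 HSC cells were of the genotype Tie2-Cre::ROSA-Evi1 and were sorted as GFP-positive, CD150-positive, CD48-negative, c-Kit-positive, Sca-1-positive and lineage-negative. The WT embryos carried the ROSA-Evi1 allele too, with no Cre. WT HSC cells had the Evi1 HSC surface gate without the GFP criterion, and WT KL cells were c-Kit-positive, Sca-1-negative and lineage-negative. Tie2-Cre is active in endothelial cells and in the blood cells that descend from them, so the allele may be switched on before a cell becomes a stem cell. No label says that replicates came from separate embryos, so each p-value rests on the spread between these samples alone, which may be technical in part. The chosen groups were balanced for sex by Xist and Ddx3y: Evi1 HSC replicate 3 and WT HSC replicate 1 were XY, and the other 4 were XX. Neither group thus came from a single embryo.

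Evi1 is a zinc finger transcription factor made from the Mecom locus, and stem cells of the fetal liver and bone marrow need it to persist. Too much Evi1 is known from myeloid leukaemias, where it hampers erythroid differentiation and interacts with lineage factors such as GATA1. GATA1 and KLF1 together switch on the genes of the red cell membrane, of haem synthesis and of haemoglobin, which stem cells keep at low levels.

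The stem cell markers fitted the choice of libraries. Procr was at 26.0 to 35.8 TPM in Evi1 HSC and 23.6 to 30.3 TPM in the Hlf-high WT libraries, and Fgd5, Meis1 and Hoxa9 likewise overlapped between the groups, with each at under 2 TPM in the 3 Hlf-low libraries. Elane, a granulocyte protease, was at 0 to 0.493 TPM in the 6 libraries and 48.2 to 129 TPM in the Hlf-low libraries. Across genes, Pearson's r was 0.944 to 0.951 among Evi1 HSC libraries, 0.947 to 0.956 among Hlf-high WT libraries, 0.938 to 0.951 between these groups and 0.786 to 0.845 with Hlf-low libraries. Between 18258 and 18806 genes reached 1 TPM in the 6 libraries. TPM keeps no read depth, so the depth is unknown. In sorted bulk samples, fewer cells of a type and less RNA per cell cannot be told apart.

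**Figure D1:**
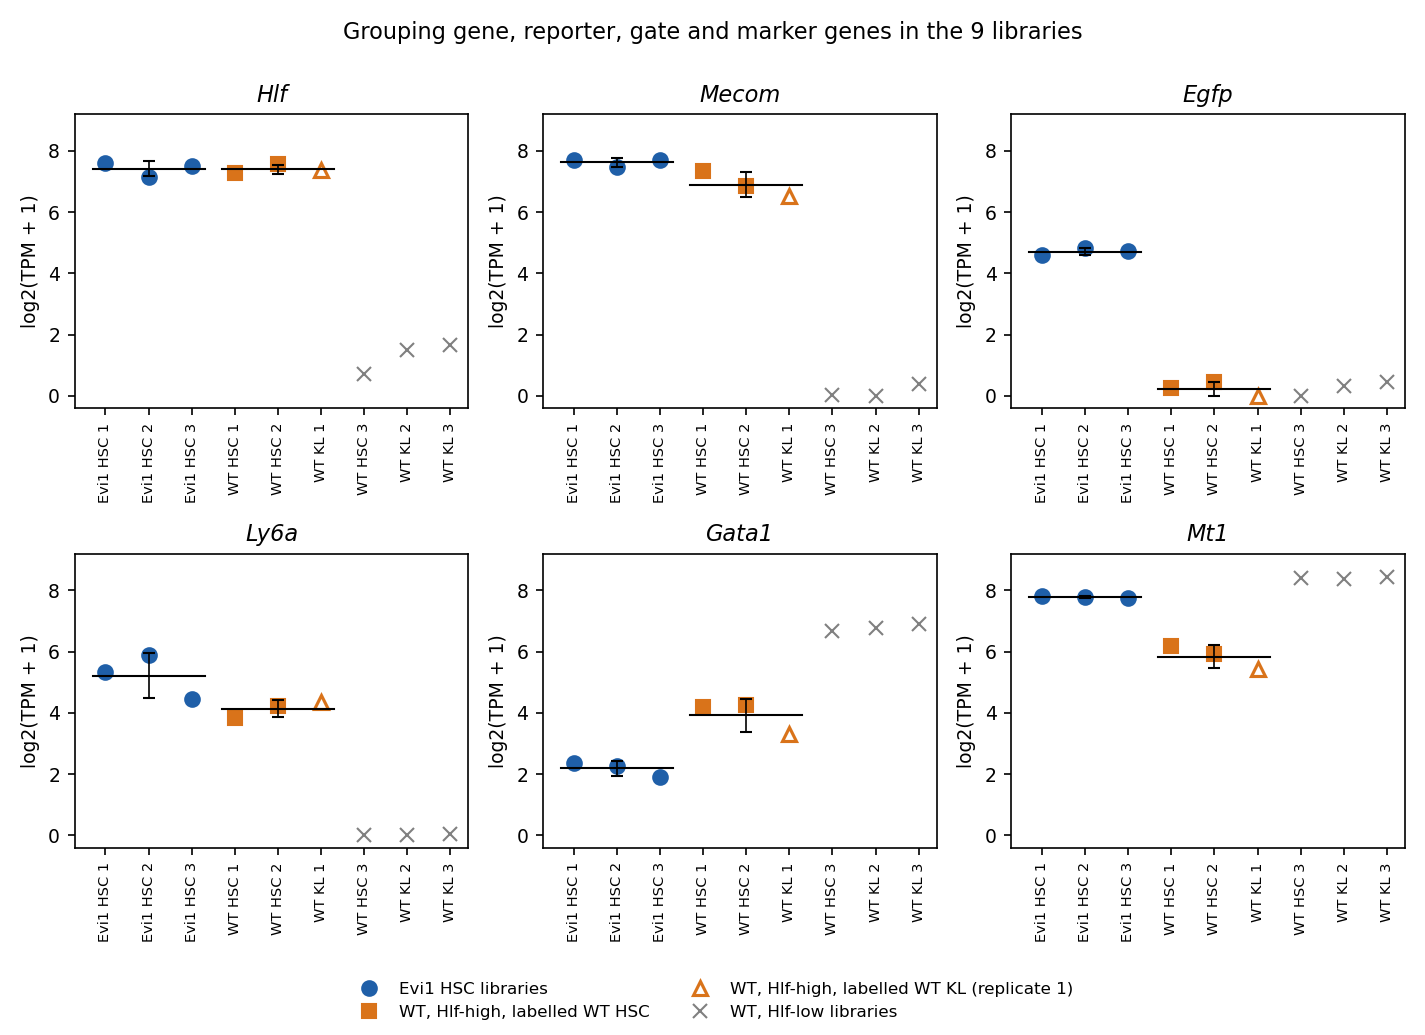
Expression as log2(TPM + 1) of the grouping gene Hlf, Mecom, the Egfp reporter, Ly6a, Gata1 and Mt1 in the 9 libraries. Points are libraries, and lines and bars are the mean and SD over the 3 libraries of the Evi1 HSC and Hlf-high WT groups. Hlf and Mecom separate 3 WT libraries from the other 3, and Mt1 and Gata1 show the Evi1 HSC libraries away from the Hlf-high WT libraries, on opposite sides.

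Very few genes passed the test between the 3 and 3 libraries. Of 18846 genes tested with limma, only Egfp, on which the cells were sorted, had an adjusted p under 0.05 (1 gene, 0.00531% of those tested). At an unadjusted p under 0.05, 1583 genes differed (8.4%), 745 of them higher (3.95%) and 838 lower (4.45%) in Evi1 HSC. The values of the 3 Evi1 HSC libraries all lay above the 3 WT values for 1318 genes (6.99%) and all below for 1460 genes (7.75%). These shares are the background for every count of members below. Without the library labelled WT KL replicate 1 they were 11.9% (higher) and 12% (lower), and without Evi1 HSC replicate 2 they were 15.2% and 11.4%, since fewer libraries overlap less often. The groups as labelled (WT HSC replicates 1 to 3) also gave 1 call, again Egfp (0.00534% of 18725). A fit over all 9 libraries, which takes part of its spread from the 3 Hlf-low libraries, called 78 of the same genes tested (0.414%), 33 higher (0.175%) and 45 lower (0.239%). The Hlf-low libraries were more alike than those of either compared group (r of 0.972 to 0.973). The log2 differences of that fit are those of the main fit with another spread, so its calls are not separate support. The gene lists below were chosen with earlier results of these data known, so their counts describe these data only. Genes described as higher or lower below are described by their values. Unless a call is named, they did not pass. Parts of the exons of several named genes, among them Septin1, Mccc1, Tle1, Cpox, Txnip, Notch1, Nos3, Cenpp, Mtf1, Pkm and Il2rg, lie in other gene models too. Hba-a1, the Ifitm genes and the H2 genes have near-identical relatives, and how shared reads were split is not known, so their levels are uncertain.

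The reporter and the gate genes came first. Egfp stood at 23.4, 27.3 and 25.4 TPM in Evi1 HSC, against 0.200, 0.373 and 0 TPM in the Hlf-high WT libraries. It rose in 3 of 3 libraries by 4.48 on the log2 scale (SE 0.18, adjusted p = 0.00116, limma), a difference that the GFP gate sets. Its adjusted p over the 14 alternatives in which it was tested ran from 3.89e-05 to 0.0937. Mecom (chromosome 3, minus strand), which encodes Evi1, was at 209, 176 and 210 TPM against 161, 114 and 90.8 TPM. All 3 Evi1 HSC values lay above the WT values, but the log2 difference of 0.73 (SE 0.21) did not pass (adjusted p = 0.413). The sources used here do not say whether reads of the transgene were assigned to Mecom. Ly6a, the gene of the Sca-1 antigen, was at 39.1, 58.6 and 20.7 TPM against 13.2, 17.6 and 19.7 TPM, a difference of 1.08 (SE 0.36, adjusted p = 0.49). The lowest Evi1 HSC library thus lay just above the highest WT library. Kit (217, 130 and 185 against 173, 215 and 176 TPM), Slamf1, which encodes CD150, and Cd48 overlapped between the groups.

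The wider stem cell list had a median near that of all genes with the 6 libraries. Of 30 members tested, 3 were higher in all 3 Evi1 HSC libraries (Mecom, Ly6a and Txnip) and none was lower, against backgrounds of 6.99% and 7.75%. The median log2 difference was 0.02, beside −0.005 over all tested genes, and 0.06 without the library labelled WT KL replicate 1. It was 0.14 without Evi1 HSC replicate 2, −0.05 without Evi1 HSC replicate 3 and 0.11 without WT HSC replicate 2. Without Evi1 HSC replicate 2, 8 members were higher and 1 was lower without overlap, against 15.2% and 11.4% of all tested genes. Txnip, which encodes a thioredoxin-binding protein, was at 188, 175 and 246 TPM against 142, 165 and 164 TPM (0.36, SE 0.14). Among 14 tested Hox genes, 1 was lower without overlap (Hoxa2). Among 21 tested partners and reported targets of Evi1, 2 were higher (Spi1 and Bcl2l1) and 1 was lower (Sirt1). Without Evi1 HSC replicate 2, 5 Hox genes and 6 of these partners and targets were higher without overlap, and 1 of each list was lower.

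Mt1 and Mt2, neighbouring metallothionein genes on chromosome 8, stood on opposite sides of the WT libraries. Metallothioneins are small cysteine-rich proteins that bind zinc and copper, and their genes are switched on by the metal sensor MTF1. Mt1 reached 224, 219 and 216 TPM in Evi1 HSC, against 70.9 and 59.2 TPM in WT HSC replicates 1 and 2, and 41.9 TPM in the one labelled WT KL replicate 1. The means were 220 ± 3.91 and 57.3 ± 14.6 TPM (SD, n = 3 each), and the groups lay far apart. The log2 difference of 1.95 (SE 0.18) had an adjusted p of 0.0692 with limma, short of the threshold. Mt1 was called without the library labelled WT KL replicate 1 (1.75, adjusted p = 0.0251) and in the fit over 9 libraries, and its adjusted p over 17 alternatives ran from 0.00493 to 0.73. In the Hlf-low libraries it was higher still, at 330 to 345 TPM. Mt2 held 14.3, 1.46 and 3.72 TPM in Evi1 HSC against 43.5, 27.7 and 17.2 TPM, a log2 difference of −2.34 (SE 0.67, adjusted p = 0.418), and at 163 to 198 TPM in the Hlf-low libraries. Both genes were thus highest in the Hlf-low libraries, and among the 6 compared libraries Mt1 was higher and Mt2 lower in every Evi1 HSC library. Of the 588 exonic bases of Mt2, 432 are shared with the opposite-strand gene model Gm45774, whereas none of the 1246 exonic bases of Mt1 is shared.

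The upstream bases of both genes are shown because the neighbours differ in direction although both are known to respond to metals. They are from RefSeq (GRCm38.p6), on the plus strand, chr8:94178839-94179081 for Mt1 and chr8:94172368-94172617 for Mt2, with each match to TGCNCNC, the core of the metal response element, on either strand in capitals.
Mt1 upstream: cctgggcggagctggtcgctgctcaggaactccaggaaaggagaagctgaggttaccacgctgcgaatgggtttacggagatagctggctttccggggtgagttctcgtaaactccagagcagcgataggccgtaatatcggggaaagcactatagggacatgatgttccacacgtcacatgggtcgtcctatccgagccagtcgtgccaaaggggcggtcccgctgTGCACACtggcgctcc
Mt2 upstream: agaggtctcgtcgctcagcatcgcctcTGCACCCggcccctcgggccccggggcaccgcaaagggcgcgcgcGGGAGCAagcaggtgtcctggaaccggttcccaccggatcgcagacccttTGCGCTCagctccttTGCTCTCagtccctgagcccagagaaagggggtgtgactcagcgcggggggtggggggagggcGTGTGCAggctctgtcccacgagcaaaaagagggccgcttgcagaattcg
In the 250 bases before the RefSeq start, Mt1 held 1 match and Mt2 held 5. Of 32851 RefSeq upstream windows of that length, 44.4% held at least 1 match and 0.34% at least 5. GENCODE M21 lists further Mt1 starts downstream, whose own upstream bases this window holds only in part. Matches nearer those starts fall outside the window and were not counted, so the counts of Mt1 and Mt2 cannot be compared. The last bases of the Mt1 window are left out because GENCODE places them in its first exon.

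The zinc list as a whole had no steady direction. Of 15 members tested, 1 was higher without overlap (Mt1) and 3 were lower (Mt2, Mtf1 and Slc39a8), with a median of 0.07. The median was 0.01 without the library labelled WT KL replicate 1, −0.06 without Evi1 HSC replicate 2 and −0.01 without WT HSC replicate 2. The counts of 1 and 3 held without the first and without the second of these. The shares over all tested genes were larger there, at 11.9% (higher) and 12% (lower) without the first, and 15.2% and 11.4% without the second. Mtf1, which encodes the metal sensor, was at 3.94, 3.68 and 4.78 TPM against 6.20, 6.30 and 5.81 TPM (−0.47, SE 0.16, adjusted p = 0.489). Slc39a8, a zinc and manganese importer, was at 2.93, 3.09 and 2.59 TPM against 7.94, 11 and 3.10 TPM, and there the library labelled WT KL replicate 1 lay beside the Evi1 HSC libraries.

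Among erythroid genes, 4 of 13 transcription factors, 13 of 20 membrane and surface genes and 7 of 18 haem genes were lower in all 3 Evi1 HSC libraries (7.75% of all tested genes were), and none passed the 6-library test. Gata1 (chromosome X), the factor that directs erythroid differentiation, held 4.20, 3.79 and 2.79 TPM in Evi1 HSC against 17.3, 18.2 and 8.92 TPM, and at 100 to 118 TPM in the Hlf-low libraries. Klf1 (chromosome 8), the erythroid Krüppel-like factor, was at 2.51, 0.474 and 0.110 TPM against 23.1, 21.1 and 13.6 TPM, and at 147 to 155 TPM in the Hlf-low libraries. In both genes the library labelled WT KL replicate 1 was the lowest of the 3 WT libraries, although still above every Evi1 HSC library. The log2 differences were −1.74 (SE 0.29, adjusted p = 0.152) for Gata1 and −3.47 (SE 0.44, adjusted p = 0.0855) for Klf1. Without the library labelled WT KL replicate 1 they were −2.04 (adjusted p = 0.128) and −3.69 (adjusted p = 0.192). Gfi1b, a repressor that red cell and platelet precursors need, was at 10.7, 6.97 and 9.43 TPM against 21.2, 21.4 and 17.3 TPM (−1.08, SE 0.18, adjusted p = 0.163). These 3 genes were called in the fit over 9 libraries. The adjusted p over 17 alternatives ran from 0.0315 to 0.73 for Gata1 and from 0.00978 to 0.585 for Klf1.

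The bases upstream of Gata1 and Klf1 are given because both genes were lower together and GATA factors are known to act on both. They are from RefSeq (GRCm38.p6), chrX:7967911-7968160 on the minus strand for Gata1 and chr8:84901732-84901927 on the plus strand for Klf1, with GATA on either strand in capitals (TATC where it lies on the opposite strand).
Gata1 upstream: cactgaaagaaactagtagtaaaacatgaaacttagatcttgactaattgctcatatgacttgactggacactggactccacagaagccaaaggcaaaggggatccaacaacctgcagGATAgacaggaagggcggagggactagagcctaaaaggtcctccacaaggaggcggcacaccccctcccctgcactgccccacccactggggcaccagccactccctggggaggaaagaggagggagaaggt
Klf1 upstream: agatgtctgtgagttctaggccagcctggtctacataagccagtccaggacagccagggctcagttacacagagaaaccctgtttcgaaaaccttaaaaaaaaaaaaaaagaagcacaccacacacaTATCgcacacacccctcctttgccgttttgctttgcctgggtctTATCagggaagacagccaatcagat
Gata1 held 1 match and Klf1 held 2 in the 250 bases before the RefSeq start, of which the last bases of Klf1 are not printed because GENCODE places them in its exon. At least 1 match stood in 53.6% of all RefSeq windows of that length and at least 2 in 24.2%. AAGATAA, the core read by the N-terminal fingers of Evi1, which includes a GATA, was in neither window and in 3.1% of all windows. The Gata1 window lies inside the span that GENCODE M21 gives this gene (7959260 to 7978071). The bases before the upstream end of that span were not searched.

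Of 13 erythroid transcription factors tested, 4 were lower without overlap (Gata1, Klf1, Gfi1b and Cbfa2t3) and 2 were higher (Nfe2 and Ikzf1), with a median of −0.17 (−0.18 without the library labelled WT KL replicate 1 and −0.10 without Evi1 HSC replicate 2). Nfe2, a factor of red cell and platelet precursors, was at 88.3, 103 and 101 TPM against 74.4, 77.8 and 70.9 TPM (0.38, SE 0.10, adjusted p = 0.355). Ikzf1, which encodes the lymphoid factor Ikaros, was at 81.1, 78.0 and 75.2 TPM against 49.5, 36.4 and 68.2 TPM (0.64, SE 0.21, adjusted p = 0.49). Lmo2 (446, 370 and 282 against 419, 443 and 417 TPM), Myb and Bcl11a, the most abundant of the list, overlapped. The list thus held differences in both directions.

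Red cell membrane and surface genes held the most members on the lower side of any list. Of 20 members tested, 13 were lower without overlap and none was higher, against backgrounds of 7.75% and 6.99%. The median was −1.26, and −1.28 over the 17 tested without the library labelled WT KL replicate 1. Members lost there met the filter of 1 TPM in 3 libraries only with that library. Where a member met the filter only through the WT libraries, its lower direction was largely fixed by it. Of the same 20, 13 were lower without the library labelled WT KL replicate 1, against 12% of all tested genes. Without Evi1 HSC replicate 2 the count was also 13, against 11.4%. The median was −0.53 with a pseudocount of 5 and −1.98 with one of 0.1. All 13 were also higher in each of the 3 Hlf-low libraries than in any Hlf-high WT library, so Evi1 HSC stood farther from the Hlf-low libraries than the WT did. The same order held for 563 of the 1460 genes that were lower without overlap among all tested genes. Ermap, a red cell surface adhesion protein, was at 1.61, 0 and 0 TPM against 27.7, 26.7 and 11.5 TPM (−3.96, SE 0.49, adjusted p = 0.0787). Rhd, the Rh blood group antigen, was at 1.87, 0.323 and 0 TPM against 14.1, 11 and 6.53 TPM (−2.83, SE 0.44, adjusted p = 0.13). Epor, the erythropoietin receptor, was at 4.89, 5.75 and 5.71 TPM against 16.9, 14.2 and 12.2 TPM (−1.25, SE 0.16, adjusted p = 0.0889). These 3 were the members that the fit over 9 libraries called.

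Other surface genes had wider spreads. Tfrc, the transferrin receptor that imports iron, was at 33.8, 18.9 and 20.7 TPM against 76.7, 71.8 and 40.6 TPM (−1.32, SE 0.31). Kel, a blood group endopeptidase, was at 3.52, 0.0525 and 0.585 TPM against 10.05, 9.86 and 7.77 TPM (−2.37, SE 0.51), and Evi1 HSC replicate 1 was the highest of its group in Ermap, Rhd, Tfrc and Kel. The most abundant member, Car2 (carbonic anhydrase), overlapped at 263, 201 and 248 against 259, 319 and 279 TPM. In 12 of the 13 members the library labelled WT KL replicate 1 was the WT library nearest to the Evi1 HSC mean.

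Haem and iron genes showed a smaller difference. Of 18 haem genes tested, 7 were lower without overlap and none was higher (median −0.64). Without the library labelled WT KL replicate 1, 9 were lower, against 12% of all tested genes, and the median was −0.67. Cpox, coproporphyrinogen oxidase, was at 21.8, 14.1 and 8.67 TPM against 68.1, 50.6 and 40.02 TPM (−1.82, SE 0.34, adjusted p = 0.198). Slc25a38, the mitochondrial glycine carrier that feeds haem synthesis, was at 4.90, 3.58 and 3.07 TPM against 8.99, 12.8 and 10.02 TPM (−1.26, SE 0.21, adjusted p = 0.147). Both were called in the fit over 9 libraries. Of 10 iron genes tested, 4 were lower without overlap (median −0.12). Among them was Slc11a2, the iron importer DMT1, at 2.68, 2.96 and 3.04 TPM against 6.52, 6.99 and 5.12 TPM. The fit over 9 libraries called Slc11a2. Slc40a1, also among the 4, was at 0.501, 0.859 and 0.585 TPM against 6.09, 5.79 and 1.49 TPM. Slc40a1 met the filter on low values only through the WT libraries, so its direction was largely fixed by that filter. Of the same 10 iron genes, 5 were lower without the library labelled WT KL replicate 1, against 12% of all tested genes. The median over the 8 tested without that library was −0.06. The abundant ferritin genes Fth1 and Ftl1 overlapped, at 343 to 374 against 363 to 417 TPM for Fth1.

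Globin levels followed single libraries rather than the groups. Hba-a1, adult alpha globin, held 244, 2.40 and 2.03 TPM in Evi1 HSC, 22.2 and 94.4 TPM in WT HSC replicates 1 and 2, and 1146 TPM in the one labelled WT KL replicate 1. Hbb-y, an embryonic beta-like globin, was at 1248 TPM in that library and 0 to 0.802 TPM in the other 5. Alb, the hepatocyte albumin gene, was also highest there (10.4 TPM, against 0.140 to 3.18 TPM in the other 5). The 11 hepatocyte markers summed to 22.9 to 32.2 TPM in Evi1 HSC and 36.8 to 58.0 TPM in the Hlf-high WT libraries, and their part in the erythroid values was not tested. The 4 tested globin genes had a median of −1.74, which ran from −3.00 to −0.52 as single libraries were left out, the latter without the library labelled WT KL replicate 1. The globin median was −0.67 with the replicate number as a block and −0.15 with the listed genes rescaled to the same total in each library. All 4 globin genes tested in the main fit overlapped between the groups.

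**Figure D2:**
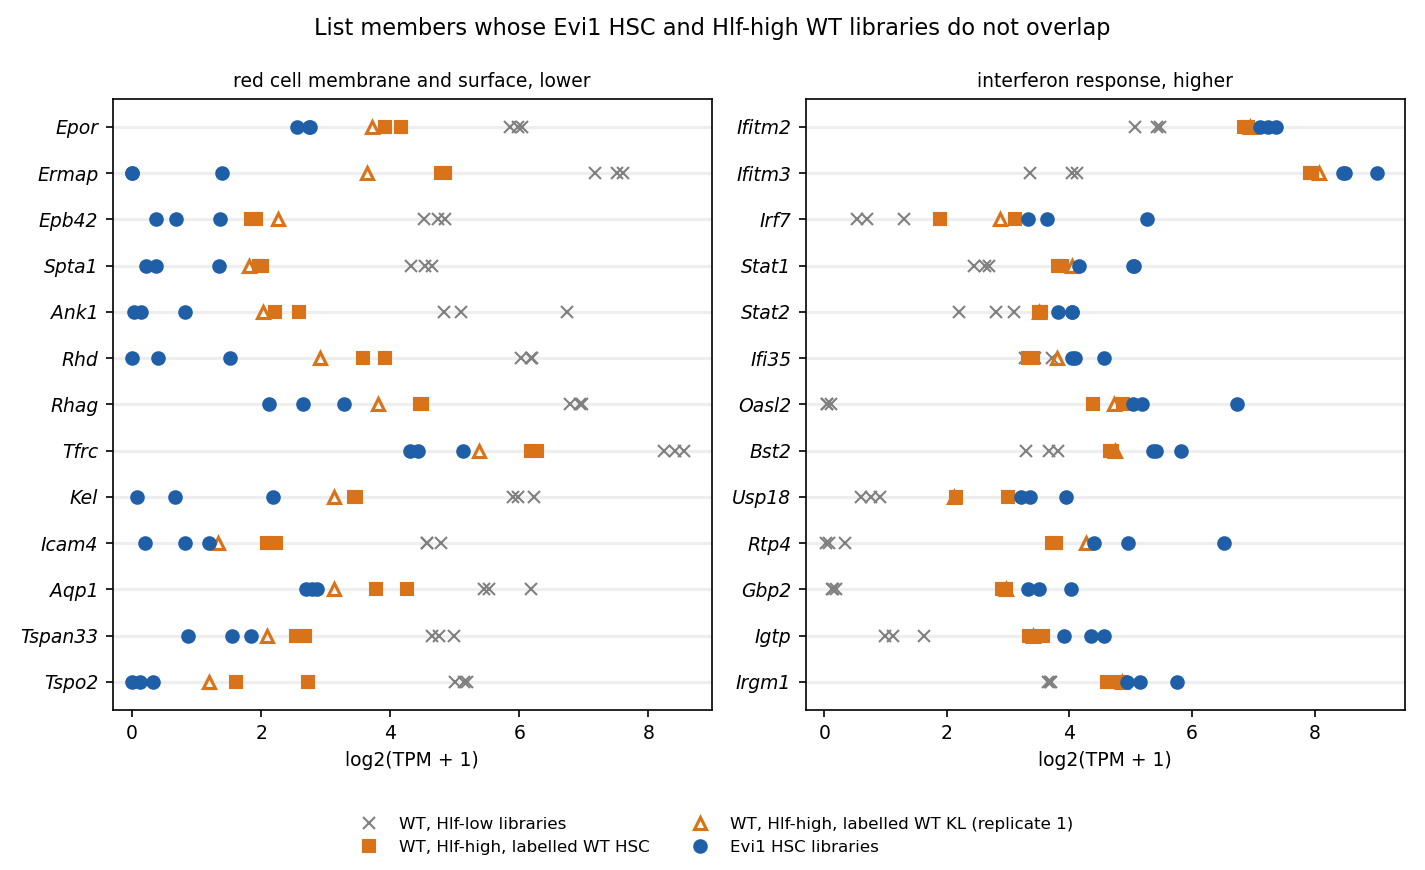
Values of the 13 red cell membrane genes and the 13 interferon response genes whose Evi1 HSC and Hlf-high WT libraries do not overlap, as log2(TPM + 1), 1 point per library. On the left the Evi1 HSC points lie lowest and the Hlf-low points highest in every gene. On the right Evi1 HSC replicate 2 gives the highest point in 11 of 13 genes.

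Interferon response genes were the list with the highest median. Of 33 members tested, 13 were higher in all 3 Evi1 HSC libraries and none was lower (median 0.72), none passing the test. Without Evi1 HSC replicate 2 the median was 0.36 and 13 members were higher without overlap, against 15.2% of all tested genes. Without the library labelled WT KL replicate 1 the median was 0.79 and 19 were higher, against 11.9%. Ifitm3, an interferon-induced membrane protein that restricts viral entry, was at 353, 518 and 361 TPM against 241, 246 and 269 TPM (0.68, SE 0.16, adjusted p = 0.285). Bst2, which encodes tetherin, was at 40.04, 55.6 and 41.4 TPM against 24.9, 24.2 and 25.7 TPM (0.83, SE 0.15, adjusted p = 0.17). These values lay close together within the WT group. Irf7, the factor that amplifies the interferon response, was at 8.98, 37.6 and 11.4 TPM against 2.71, 7.64 and 6.30 TPM (1.45, SE 0.56, adjusted p = 0.556). Rtp4 was at 29.8, 90.3 and 20.1 TPM against 12.7, 12.1 and 18.2 TPM, and Oasl2, an oligoadenylate synthetase-like gene, at 35.2, 105 and 31.7 TPM against 19.9, 28.3 and 25.6 TPM. Evi1 HSC replicate 2 held the highest value in 11 of the 13 genes, and the summed list was at 1916 TPM there against 1278 and 1254 TPM in replicates 1 and 3 and 946 to 1071 TPM in the Hlf-high WT libraries.

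Antigen presentation genes differed less. Of 18 MHC class I genes tested, 4 were higher without overlap (H2-Q4, Tap1, Tapbp and Psmb9) and none was lower (median 0.30, and 0.19 without WT HSC replicate 1). Without the library labelled WT KL replicate 1, 9 were higher without overlap, against 11.9% of all tested genes. Tap1, a peptide transporter, was at 33.7, 31.4 and 26.0 TPM against 16.1, 20.8 and 21.2 TPM (0.62, SE 0.16, adjusted p = 0.351). B2m and H2-K1, the most abundant, overlapped because the library labelled WT KL replicate 1 was the highest of its group: H2-K1 was at 342, 213 and 215 TPM against 149, 158 and 235 TPM.

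**Figure D3:**
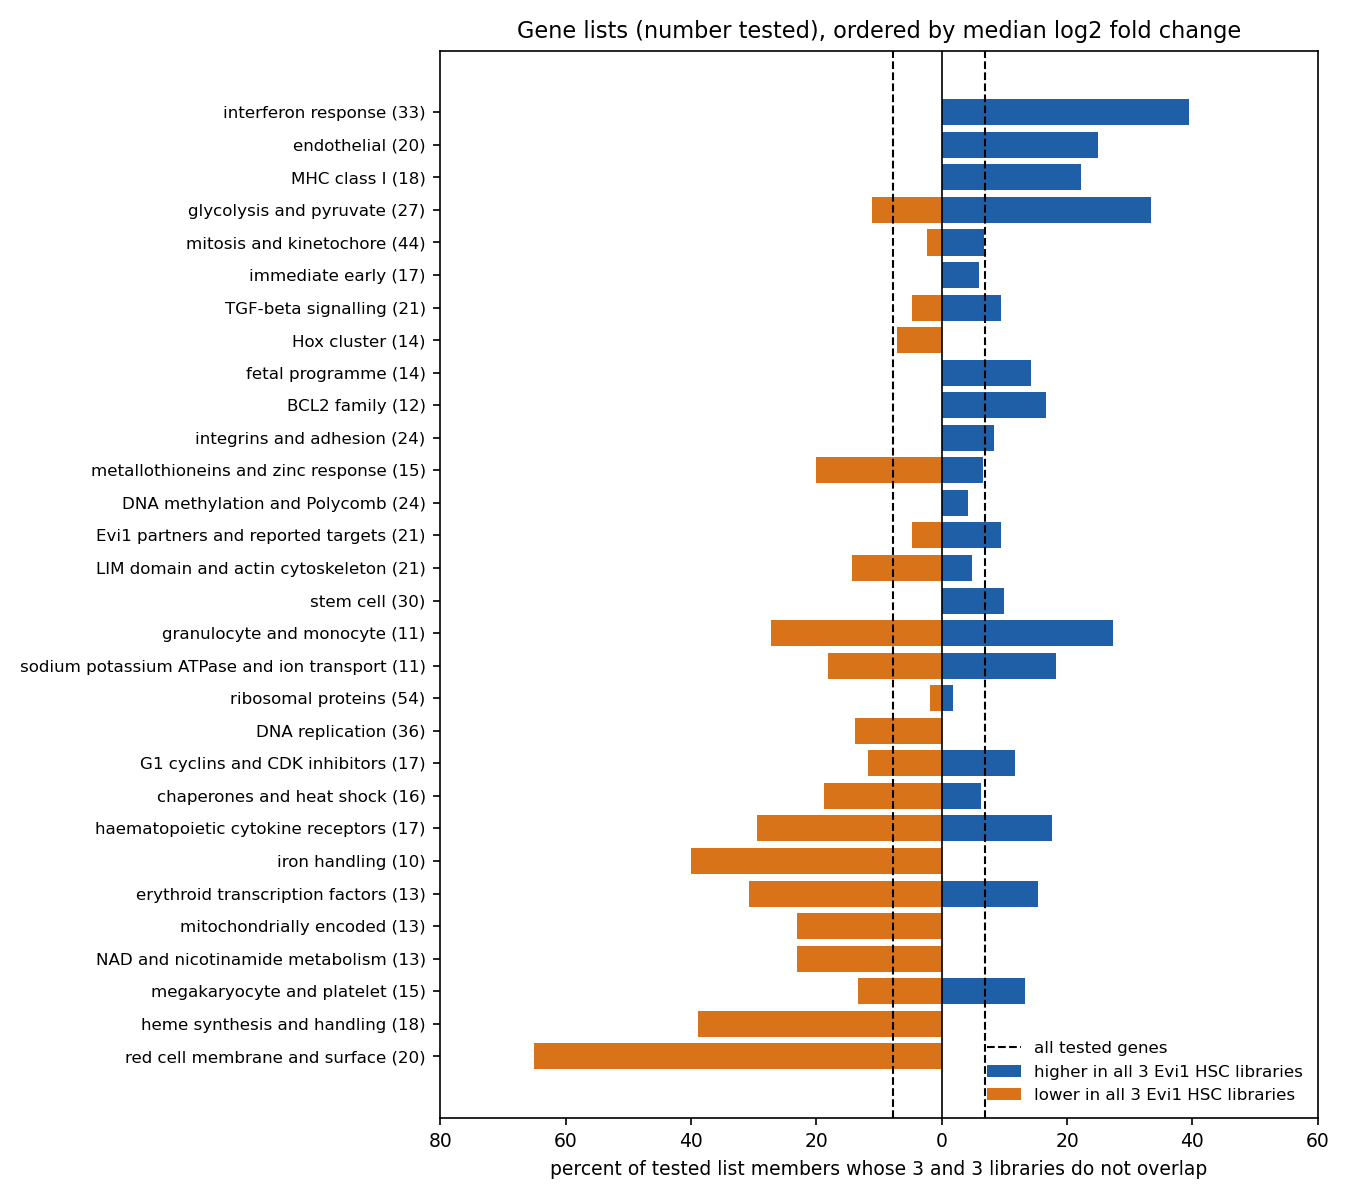
Share of the tested members of each list with at least 10 tested genes whose Evi1 HSC and Hlf-high WT libraries do not overlap, higher to the right and lower to the left, in percent. Dashed lines are the shares over all tested genes, 6.99% higher and 7.75% lower. Red cell membrane genes reach 65.0% on the lower side and interferon response genes 39.4% on the higher side. The lists were chosen with earlier results of these data known, so the shares are descriptions.

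Beyond these lists, the genes with the smallest p on the higher side included cell cycle and metabolic genes. After Egfp and Mt1 came Trp53, which encodes the tumour suppressor p53, at 70.7, 72.9 and 77.3 TPM against 42.4, 39.9 and 43.7 TPM. The difference of 0.79 (SE 0.09, adjusted p = 0.0753) was small but the spread within each of these groups was smaller. Trp53 varied more in the Hlf-low libraries, at 76.8, 44.4 and 78.0 TPM, and its adjusted p with limma was 0.181 in the fit over 9 libraries. Septin1, a cytoskeletal GTP-binding protein, was at 50.6, 56.1 and 50.6 TPM against 24.8, 25.9 and 30.9 TPM (0.93, SE 0.12, adjusted p = 0.0882). Ccnd1, which encodes the G1 cyclin D1, was at 52.0, 42.1 and 45.2 TPM against 21.6, 17.1 and 24.9 TPM (1.10, SE 0.16, adjusted p = 0.113). The gene model LTO1 covers 1100 of the 4709 exonic bases of Ccnd1. Mccc1, a subunit of the carboxylase that breaks down leucine, was at 26.2, 17.2 and 25.0 TPM against 7.69, 8.98 and 8.43 TPM (1.33, SE 0.18, adjusted p = 0.102). P4ha1, a collagen prolyl hydroxylase, was at 10.8, 19.2 and 16.8 TPM against 4.40, 3.60 and 4.04 TPM (1.69, SE 0.22, adjusted p = 0.0895). Itpkb (an inositol trisphosphate kinase), Msrb3 (a methionine sulfoxide reductase), Zfp780b, Vim (vimentin) and Emb (embigin) completed the 12, with log2 differences of 0.49 to 1.04 and adjusted p up to 0.163. In 7 of the 12 every Hlf-low library lay below the Hlf-high WT libraries, and 7 of the 12 were called in the fit over 9 libraries, Egfp and Mt1 among them.

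On the lower side the 12 genes with the smallest p mixed erythroid and other genes. Pklr, the pyruvate kinase of red cells and liver, was at 1.95, 0 and 0.00404 TPM against 37.9, 26.8 and 15.5 TPM (−4.19, SE 0.50, adjusted p = 0.0761), and Hcn3 covers 711 of its 3236 exonic bases. Atp1b2, a beta subunit of the sodium-potassium pump, was at 0.645, 0 and 0.0785 TPM against 15.3, 6.63 and 13.5 TPM (−3.33, SE 0.34, adjusted p = 0.0727). Atp1b2 met the filter on low values only through the WT libraries, so its direction was largely fixed by that filter. Nxpe2 was at 1.30, 0.475 and 0.631 TPM against 11.6, 13.4 and 8.84 TPM (−2.78, SE 0.24, adjusted p = 0.0692). Like Ermap, Klf1 and Ifi30 (a lysosomal thiol reductase), they were highest in the Hlf-low libraries. These 6 of the 12 were the ones in which every Hlf-low library exceeded every Hlf-high WT library, and all 6 were called in the fit over 9 libraries.

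The other 6 had no such order. Dnajb4, a heat shock co-chaperone, was at 3.71, 3.46 and 5.03 TPM against 14.8, 17.0 and 17.0 TPM (−1.78, SE 0.17, adjusted p = 0.0692), and the Hlf-low libraries held 13.2, 3.42 and 3.73 TPM. Tle1, a transcriptional corepressor, was at 4.09, 4.46 and 4.42 TPM against 14.5, 14.7 and 11.5 TPM (−1.45, SE 0.15, adjusted p = 0.0727). Pex3, which peroxisomes need to form, was at 5.67, 5.82 and 5.64 TPM against 15.3, 14.8 and 12.9 TPM (−1.19, SE 0.13, adjusted p = 0.0753). Kcnk5, a potassium channel, was at 12.3, 12.8 and 10.9 TPM against 26.3, 22.7 and 25.7 TPM (−1.0, SE 0.13, adjusted p = 0.0804) and was called in the fit over 9 libraries. Dpy19l1 and Cgrrf1 were lower by 1.67 and 1.44 on the log2 scale. In the 12 as a whole the library labelled WT KL replicate 1 was the WT library nearest to the Evi1 HSC mean in 8, WT HSC replicate 2 in 3 and WT HSC replicate 1 in 1.

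**Figure D4:**
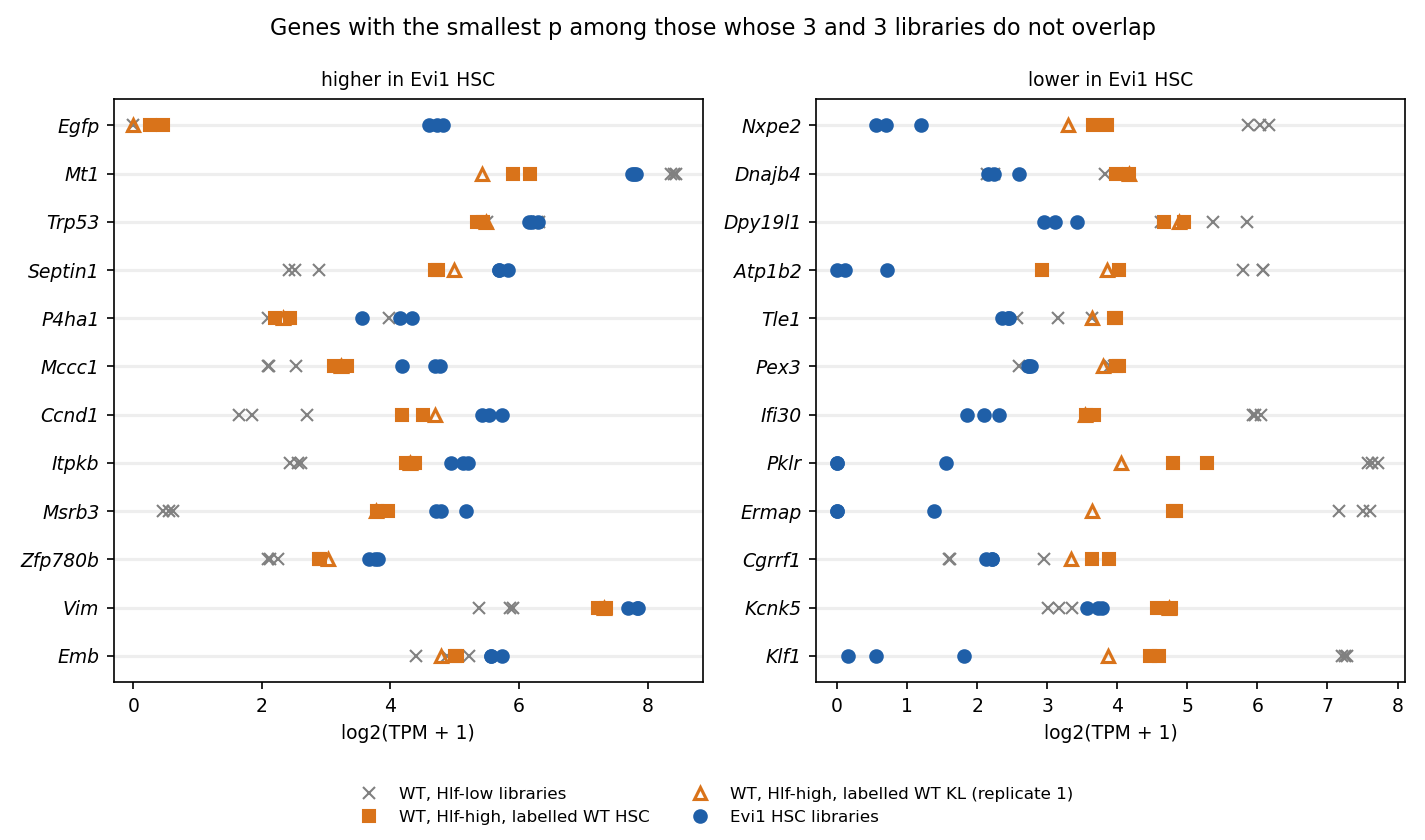
The 12 genes on each side with the smallest p among named genes at a mean of 10 TPM or more whose 3 and 3 libraries do not overlap, as log2(TPM + 1), 1 point per library. The Evi1 HSC points lie apart from both kinds of Hlf-high WT point in each gene, and of the 24 only Egfp passed the 6-library test. The grey Hlf-low points lie highest in 6 of the 12 lower genes.

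Leaving out the library labelled WT KL replicate 1 changed which genes passed. The 3 Evi1 HSC libraries against the 2 Hlf-high libraries labelled WT HSC gave 6 called genes of 18454 (0.0325%), with 5 higher (0.0271%) and 1 lower (0.00542%), namely Egfp, Csrp1, Tbca, Cenpp and Mt1, and Hebp1. In 4 of the 6 the left-out library sat with Evi1 HSC and not with the WT. Csrp1, a LIM-domain actin cytoskeleton protein, held 44.2, 44.1 and 43.9 TPM in Evi1 HSC, 6.56 and 6.34 TPM in WT HSC replicates 1 and 2, and 52.2 TPM in the left-out library. Its log2 difference of 2.60 (adjusted p = 0.0117) became 1.65 (SE 0.73, adjusted p = 0.616) with that library. Tbca, a tubulin folding cofactor, was at 66.8, 53.4 and 53.9 TPM against 7.14 and 6.20 TPM, with 56.5 TPM in the left-out library. Tbca was also at 4.18 TPM in WT KL replicate 3 and at 65.4 and 66.3 TPM in the other Hlf-low libraries, so its low level was not tied to 1 group. Cenpp, a centromere protein, was at 17.8, 17.0 and 15.2 TPM against 1.05 and 0.787 TPM, with 14.1 TPM in the left-out library. Hebp1, a haem-binding protein, was at 1.66, 1.59 and 1.57 TPM against 15.5 and 14.0 TPM, with 2.97 TPM in the left-out library, so it kept its direction (−1.93, adjusted p = 0.392) but not its call. Over 17 alternatives the adjusted p of Csrp1, Tbca, Cenpp and Hebp1 ran up to 0.825, 0.795, 0.776 and 0.695, and the fit without that library was the only one that called them. Pbk, a mitotic kinase gene chosen after its values were seen, had the same order, at 24.7 to 28.8 TPM in Evi1 HSC, 8.69 and 7.43 TPM in WT HSC replicates 1 and 2, and 25.9 TPM in the left-out library.

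Over many genes that library did not stand out from the other Hlf-high WT libraries. On the 2252 genes for which Evi1 HSC lay above both libraries labelled WT HSC, it lay inside or past the Evi1 HSC range in 41.5%. The same share was 37.8% for WT HSC replicate 1 and 40.7% for WT HSC replicate 2 when each was the one set aside. For genes on which Evi1 HSC lay below the remaining pair, the shares were 35.6% for the library labelled WT KL replicate 1, 38.5% for WT HSC replicate 1 and 41.7% for WT HSC replicate 2. Leaving out WT HSC replicate 2 gave 4 calls, among them Stab2 and Ets1 (adjusted p = 0.0409 each with limma, and up to 0.761 and 0.767 in other alternatives). Stab2, a scavenger receptor of liver sinusoidal endothelium, was at 10.01, 10.8 and 10.5 TPM in Evi1 HSC, 8.26 TPM in WT HSC replicate 2, and 0.175 and 0.580 TPM in the other Hlf-high WT libraries. Ets1, an endothelial and lymphoid transcription factor, was at 14.8, 15.0 and 16.5 TPM, with 12.8 TPM in WT HSC replicate 2 and 1.87 and 1.92 TPM in the other 2. Lyve1 and Mrc1, further sinusoidal markers, were also highest of the WT group in WT HSC replicate 2. The Hlf-high WT libraries therefore differed among themselves on such genes by more than some of them differed from Evi1 HSC.

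**Figure D5:**
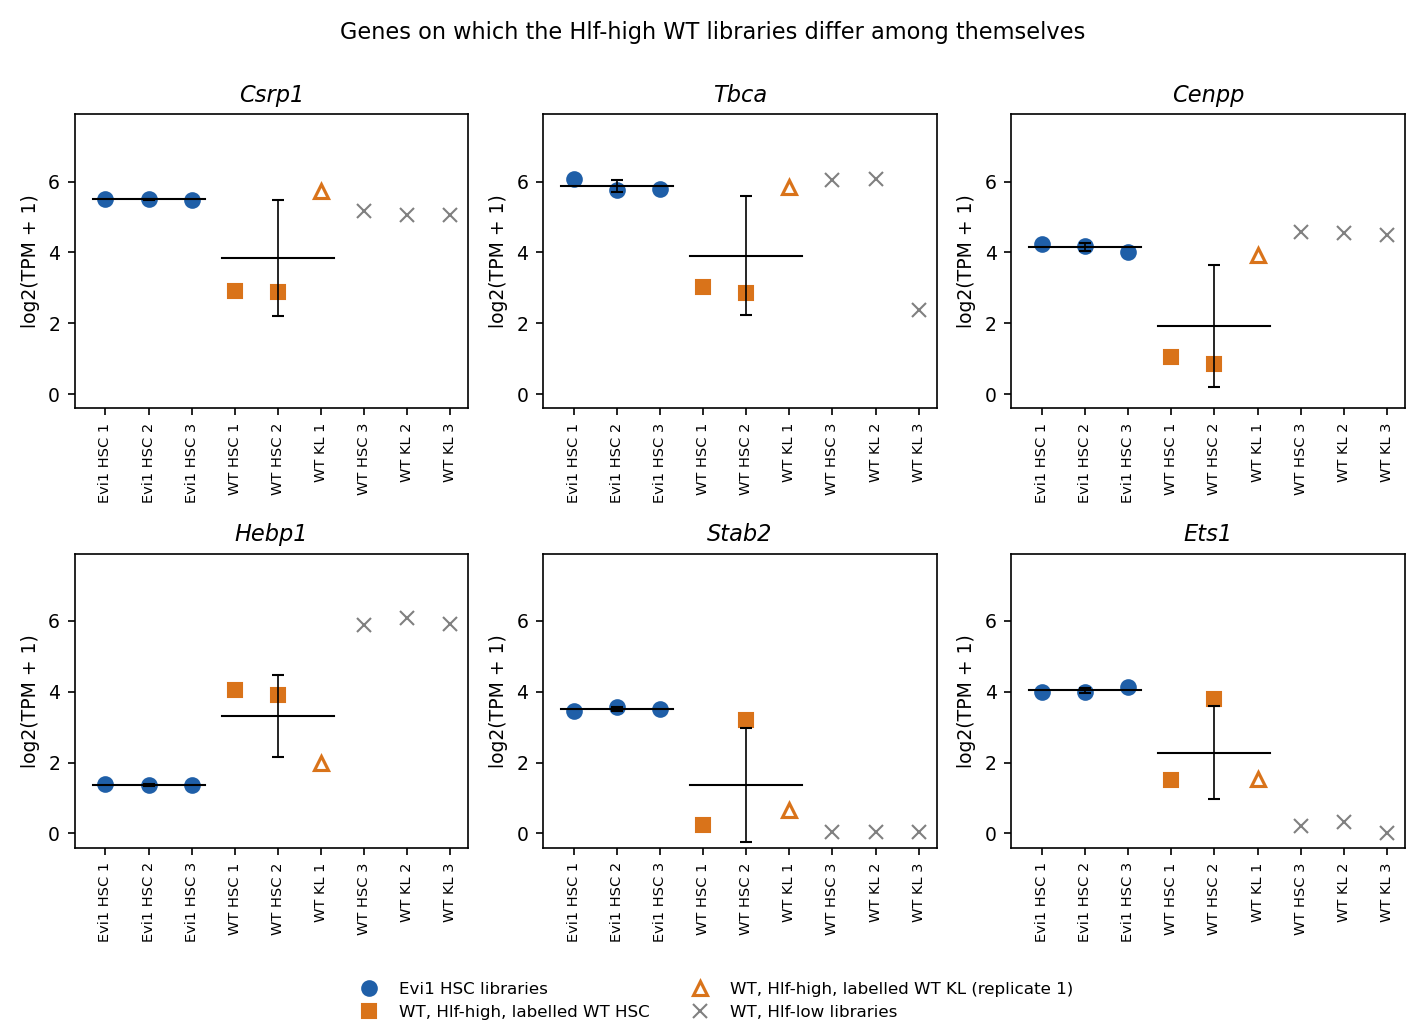
Expression as log2(TPM + 1) of Csrp1, Tbca, Cenpp, Hebp1, Stab2 and Ets1 in the 9 libraries, with the mean (line) and SD (bar) over the 3 libraries of the Evi1 HSC and Hlf-high WT groups. In Csrp1, Tbca, Cenpp and Hebp1 the library labelled WT KL replicate 1 (open triangle) lies near the Evi1 HSC libraries, and in Stab2 and Ets1 WT HSC replicate 2 does.

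Markers of other cells were compared as whole lists. Of 20 endothelial genes tested, 5 were higher in all 3 Evi1 HSC libraries (Cldn5, Stab2, Lyve1, Nos3 and Ets1) and none was lower, with a median of 0.31 (0.14 without WT HSC replicate 1). There were 6 higher without the library labelled WT KL replicate 1, against 11.9% of all tested genes, with a median of 0.30. WT HSC replicate 2 was the nearest WT library in all 5. Nos3, the endothelial nitric oxide synthase, was at 6.51, 6.13 and 8.87 TPM against 2.18, 3.30 and 2.66 TPM (1.13, SE 0.20, adjusted p = 0.171) and was called in the fit over 9 libraries. The 24 endothelial markers summed to 756 to 1254 TPM in Evi1 HSC and 652 to 755 TPM in the Hlf-high WT libraries, with most of the total in genes that stem cells also use, such as Egfl7 (235, 236 and 610 against 346, 139 and 156 TPM). Their part in the results was not tested. Mast cell genes summed to 0.968 to 4.12 TPM in Evi1 HSC and 0.677 to 1.24 TPM in the Hlf-high WT libraries, and stromal genes to 1.04 to 1.57 and 0.827 to 2.22 TPM, with no member past the filter. Mcpt8, Fcer1a and Tpsb2 were listed at 0 in all 6 libraries.

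Myeloid and lymphoid genes went both ways. Of 11 granulocyte and monocyte genes tested, 3 were lower without overlap (Csf2rb, Csf3r and Lyz2) and 3 were higher (Spi1, Cd68 and Ltf), with a median of 0.01. Csf3r, the G-CSF receptor, was at 21.9, 22.2 and 27.1 TPM against 35.1, 37.0 and 39.2 TPM (−0.63, SE 0.12, adjusted p = 0.213). Csf2rb, the shared beta chain of the GM-CSF receptor family, was at 4.97, 5.70 and 6.09 TPM against 10.02, 10.5 and 11.5 TPM (−0.82, SE 0.14, adjusted p = 0.163). With Epor, Il6ra and Ifngr1 they made 5 of 17 tested cytokine receptors that were lower without overlap, while 3 were higher. Of 7 lymphoid genes tested, 3 were higher without overlap and 1 was lower (Gata3). Notch1, a receptor that directs T cell fate, was at 43.9, 24.6 and 50.9 TPM against 17.9, 18.3 and 16.5 TPM (1.08, SE 0.26, adjusted p = 0.319), and Il2rg, the common cytokine receptor gamma chain, at 72.4, 75.0 and 58.2 TPM against 40.7, 53.9 and 53.9 TPM. Of 15 platelet genes tested, Cd9 and Ppbp were higher and F2r and F2rl2 lower without overlap, and Cd9, a tetraspanin, was at 21.2, 17.5 and 19.2 TPM against 12.4, 11.6 and 10.2 TPM (0.71, SE 0.14, adjusted p = 0.21).

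More glycolytic genes were higher than lower, while Pklr was far lower. Of 27 tested, 9 were higher without overlap (33.3%) and 3 were lower (11.1%, Pklr, Ldhb and Pdha1), against 6.99% and 7.75% of all tested genes. Without Evi1 HSC replicate 2 the counts were also 9 and 3, against 15.2% and 11.4%. They were 10 and 4 without the library labelled WT KL replicate 1, against 11.9% and 12%. The median was 0.30, and 0.10 with the replicate number as a block. It was 0.48 without Evi1 HSC replicate 1, 0.17 without replicate 3, and 0.23 without the library labelled WT KL replicate 1. Hk2, a hexokinase, was at 29.3, 38.4 and 27.2 TPM against 18.7, 15.3 and 17.5 TPM (0.84, SE 0.16, adjusted p = 0.21). Pgk1, phosphoglycerate kinase, was at 87.8, 118 and 114 TPM against 66.9, 62.5 and 70.6 TPM (0.66, SE 0.13, adjusted p = 0.228). Pkm, the pyruvate kinase gene of most other cells, was at 105, 118 and 135 TPM against 91.4, 79.8 and 86.9 TPM, so the 2 pyruvate kinase genes lay on opposite sides of the WT. Ldha, the most abundant, overlapped at 440 to 572 against 444 to 496 TPM.

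Cell division genes depended on single libraries. Of 36 DNA replication genes tested, 5 were lower without overlap and none was higher (median −0.06), and Rrm2, a ribonucleotide reductase subunit, was at 48.5, 46.7 and 48.5 TPM against 57.1, 58.3 and 60.4 TPM (−0.29, SE 0.09, adjusted p = 0.454). The replication median ran from −0.13 without WT HSC replicate 2 to nearly 0 without Evi1 HSC replicate 3, and was −0.03 without the library labelled WT KL replicate 1. Without Evi1 HSC replicate 2, 9 of the 36 were lower and 1 was higher, against 11.4% and 15.2% of all tested genes. Of 44 mitotic genes tested, 3 were higher (6.82%) and 1 was lower (2.27%) without overlap, against 6.99% and 7.75% of all tested genes. A difference above 0 was found in 37 of the 44 (median 0.22), beside 9241 of all 18846 tested genes. The mitotic median ran from 0.12 without Evi1 HSC replicate 1 or WT HSC replicate 2 to 0.33 without Evi1 HSC replicate 2, where 16 were higher without overlap, against 15.2% of all tested genes. It was 0.27 without the library labelled WT KL replicate 1, where 10 were higher, against 11.9%. Ribosomal protein genes had 1 higher and 1 lower of 54 tested, with a median of −0.03.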

How the data were processed

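Gene expression was read from 9 deposited tables of TPM per gene, 1 library per table and none pooled. TPM was computed by the authors, per the file headers, and 1 table (WT HSC replicate 2) heads its value column C_H3, whose values have the range of the others and were used as TPM. Of tools and genome build, the submitters' processing notes name HISAT2, StringTie and mm10. Versions, annotation and strand use were not given in the sources used here. Because TPM is a share, more of an abundant gene lowers all others.

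Genes at 1 TPM or more in 3 of the 6 libraries (18846 of 55488) were tested on log2(TPM + 1) with limma 3.58.1 (R 4.3.3, trended moderation, Benjamini-Hochberg adjustment over all tested genes), called at an adjusted p under 0.05. Fold changes are Evi1 HSC minus WT on the log2(TPM + 1) scale, which understates low genes. The fit was tested on simulated data. Named genes were Mecom, Hlf, Egfp, Mt1, Gata1, the gate genes, and per direction the 12 called genes with the largest change, filled by smallest p, with a mean of at least 10 TPM and no overlap, leaving out clone-named genes. Up to 8 genes per direction called only without the library labelled WT KL replicate 1 were added, and from each list the most abundant members. Other list members named were chosen after their values were seen. The members and the 37 lists (786 symbols, 2 unmatched) were chosen with earlier results of these data known. Gene positions and exon overlaps are from GENCODE M21 (GRCm38), and upstream sequences from RefSeq (GRCm38.p6). Alternatives left out each library, used all 9 libraries or the groups as labelled, and changed the pseudocount, filter, scaling, moderation and block.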

Additional observations from a re-analysis of the deposited data

How the results depend on the processing

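The count of 1 called gene stayed at 1 with a pseudocount of 5, no filter on low values, a mean filter of 5 TPM, rescaling or centring of the libraries, robust moderation, the groups as labelled, and sex as a term, the last chosen after seeing the data. Egfp was the gene in each of these. The count was 0 with a pseudocount of 0.1 (1574 genes at an unadjusted p under 0.05, smallest adjusted p 0.0712, limma) and 78 in the fit over 9 libraries. Leaving out 1 library gave 1 to 6 calls. It was 3 without Evi1 HSC replicate 2 (Eif3i, Snhg3 and Socs2), 4 without WT HSC replicate 2 (Bckdhb, Egfp, Ets1 and Stab2), and 6 without the library labelled WT KL replicate 1. Without Evi1 HSC replicate 1, 2 or 3, Egfp could not be tested, since it no longer reached 1 TPM in 3 libraries. With the replicate number as a block it was 0 (1550 at an unadjusted p under 0.05). Same-numbered libraries did not deviate together over all tested genes (r of −0.019, 0.045 and −0.027). Sharing that touches few genes would not show in these values, and Evi1 HSC replicate 3 had no same-numbered partner. Whether the numbers pair the libraries is therefore not known. Reversed signs, each of a gene that did not pass, were those of Kit (0.10 without Evi1 HSC replicate 2, 0.37 as labelled, and −0.27 to 0.10 over the libraries left out), Slamf1 (−0.31 without Evi1 HSC replicate 1, −0.26 without WT HSC replicate 1, −0.14 without WT HSC replicate 2, and up to 0.49 over the libraries left out) and Cd48 (−0.43 as labelled). Groups as labelled moved the median of all genes from −0.005 to 0.12. The cause was not tested. Of 1504 single-gene values under the alternatives, 1459 kept their direction and their side of the threshold, 36 passed it and 2 no longer did. Of 544 list medians, 37 moved by more than the spread between libraries. Since the depth behind the TPM values is unknown, nothing can be said of how low a level a 0 allows.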

Other observations

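Fam155a, a long gene on chromosome 8 (9205902 to 9771161, minus strand, GRCm38) chosen after its values were seen, was at 3.43, 4.25 and 6.13 TPM in Evi1 HSC against 0.467, 0.609 and 0.671 TPM in the Hlf-high WT libraries (1.80, SE 0.22, adjusted p = 0.0787, limma), and under 0.01 TPM in the Hlf-low libraries. The tables list 14 gene models inside its span or equal to it, of which 11 were tested. The filter of 1 TPM in 3 libraries was met by these 11 through the 3 Evi1 HSC libraries, so their direction was largely fixed by it, and the models are nested in 1 gene and are not independent. Gm44798, the most abundant of them, was at 6.50, 5.44 and 9.10 TPM against 1.0, 0.629 and 1.11 TPM. The tested neighbours outside the span overlapped between the groups: Lig4, a DNA ligase gene, was at 1.79, 1.36 and 2.0 TPM against 1.64, 1.30 and 1.69 TPM, and Gm44516 likewise.

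Other genes that the naming rule did not pick are given by their values. Those higher in Evi1 HSC passed the filter on low values only through the Evi1 HSC libraries. Adm, which encodes the peptide hormone adrenomedullin, was at 2.38, 1.62 and 2.47 TPM in Evi1 HSC against 0, 0.0887 and 0 TPM in the Hlf-high WT libraries and 0 in the Hlf-low libraries. Igfbp3, an insulin-like growth factor binding protein, was at 2.84, 1.60 and 1.61 TPM against 0, 0.131 and 0.0334 TPM. Tlr5, the flagellin receptor, was at 2.52, 2.57 and 2.28 TPM against 0.855, 0.615 and 0.799 TPM. These 3 genes were called in the fit over 9 libraries and not in the fit over 6, where their adjusted p was 0.0754, 0.113 and 0.156. On the lower side, Asns, asparagine synthetase, was at 18.4, 15.5 and 8.23 TPM against 57.1, 52.1 and 39.8 TPM, and at 192 to 217 TPM in the Hlf-low libraries (−1.81, SE 0.29, adjusted p = 0.142). Slc38a5, a glutamine and glycine carrier, was at 0.840, 0 and 0.285 TPM against 3.15, 4.15 and 3.38 TPM. Among the 6 libraries it met the filter only through the WT libraries, so its direction was largely fixed by that filter. Asns and Slc38a5 were called in the fit over 9 libraries.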
